A study of Homo sapiens with 6 samples.

Results

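The genes described here encode 10 extracellular glycoproteins: fibronectin (FN1), tenascin C (TNC), SPARC, thrombospondins 1 and 2 (THBS1 and THBS2), versican (VCAN), periostin (POSTN), fibrillin 1 (FBN1), the TGFB-induced protein (TGFBI) and fibulin 3 (EFEMP1). All 10 were found by symbol among the 26334 genes of the count table. The list was chosen on the comparison reported below, because FN1 was higher and TNC lower in WDR5-silenced cells, so the fold changes of its members are given as a description, with no p-value. RNA-seq was carried out in MCF10DCIS.com, a human breast cancer cell line of basal type. Cells carried either pRSI-U6-shLuc-UbiC-TagRFP-2A-Puro, with a hairpin against luciferase that serves as the control, or pRSI-U6-shWDR5-UbiC-TagRFP-2A-Puro, with hairpin sequence against WDR5, a core subunit of the histone H3 lysine 4 methyltransferase complexes. Both groups were grown in the same medium with horse serum and selected with puromycin, and each group held 3 libraries. For its transplantation experiments the study's methods describe shWDR5 in these cells as pooled hairpins, without repeating this for RNA-seq, and the time between infection and lysis was not given in the sources used here. No label says that the 3 libraries of a group came from separate cultures, so p-values measure only the spread between these libraries, which may be technical. All values come from 1 cell line in culture, with no stromal cells added.

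Extracellular glycoproteins fill the space between cells together with collagens. Fibronectin is assembled by integrins into fibrils on which cells spread and migrate, and its rise is a customary mark of the epithelial-to-mesenchymal transition (EMT). Tenascin C, SPARC, the thrombospondins and periostin are matricellular proteins: they do not build the scaffold but modulate how cells attach to it, and they are abundant in the stroma of breast tumors. Fibrillin 1 forms the microfibrils that hold latent TGFB, versican is a large hyaluronan-binding proteoglycan, and the TGFB-induced protein is an adhesive protein named for its response to TGFB.

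The libraries held 38218108 to 57640167 counts. The first principal component of log2 CPM (counts scaled to a common library size of 1000000) carried 79.2% of the variance. It separated the 3 shLuc from the 3 shWDR5 libraries, and on this component no library stood apart from its group. Within each group, however, the counts of replicate 1 differed more from the other libraries than these did from each other. WDR5 itself was lower in the shWDR5 libraries, at 22.8 ± 1.86 CPM against 50.8 ± 2.09 CPM in shLuc (SD, n = 3 per group; fell by 1.15 on the log2 scale, SE 0.07, edgeR adjusted p = 8.67e-07). All 10 genes listed as basal epithelial markers were tested. Of these 8 were called higher in shWDR5, beside 26.6% of all genes tested, and 2 lower, beside 29.9%. The 2 lower were CDH1 and EPCAM (log2 fold changes of -1.03 and -0.33). The summed level of the list was 8756 to 9684 CPM in shLuc and 13849 to 15747 CPM in shWDR5. Of 6 luminal hormone-receptor markers 3 were tested. GATA3 and FOXA1 were called lower, beside 29.9% of all genes tested, and ESR1 (log2 fold change -0.10) was not called. PGR, TFF1 and TFF3 were at or near 0. The summed level of this list was 61.9 to 72.3 CPM in shLuc and 47.6 to 54.1 CPM in shWDR5. Of 10 fibroblast markers only COL1A1, FAP, PDGFRA and PDGFRB had enough counts to be tested. COL1A1 and FAP were called lower, again beside 29.9% of all genes tested. With so few genes tested, nothing is read from the calls of the luminal and fibroblast lists. LUM had no count in any library, and COL1A2, COL3A1 and DCN were at a mean of at most 0.05 CPM in both groups; the summed level of the list was 58.6 to 66.4 CPM in shLuc and 45.5 to 47.0 CPM in shWDR5. DCN and LUM stand in the list of other matrix glycoproteins too. The part of these marker differences in the results below was not tested.

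The upstream sequences of FN1, TNC and THBS1 are shown because FN1 and TNC were the genes on which the list was chosen and THBS1 had the highest level of the members. Each is the stretch of 250 bases before the RefSeq start (build GRCh38.p14), 5′ to 3′ on the strand of the gene. The FN1 stretch lies at chr2:215436069-215436318, minus strand, that of TNC at chr9:115118158-115118407, minus strand, and that of THBS1 at chr15:39580829-39581078, plus strand. Capitals mark TATAA on the strand of the gene, and TGACGTCA (the cyclic AMP response element) and CCAAT on either strand.
FN1: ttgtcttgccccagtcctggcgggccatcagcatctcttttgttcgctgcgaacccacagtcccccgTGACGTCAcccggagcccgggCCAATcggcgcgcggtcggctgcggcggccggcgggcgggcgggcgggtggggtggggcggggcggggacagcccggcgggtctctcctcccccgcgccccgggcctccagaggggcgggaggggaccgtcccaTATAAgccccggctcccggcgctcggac
TNC: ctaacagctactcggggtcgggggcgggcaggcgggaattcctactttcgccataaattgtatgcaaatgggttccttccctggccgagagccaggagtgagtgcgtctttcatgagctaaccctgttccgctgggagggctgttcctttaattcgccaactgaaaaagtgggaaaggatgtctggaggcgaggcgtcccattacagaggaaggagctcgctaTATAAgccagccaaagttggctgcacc
THBS1: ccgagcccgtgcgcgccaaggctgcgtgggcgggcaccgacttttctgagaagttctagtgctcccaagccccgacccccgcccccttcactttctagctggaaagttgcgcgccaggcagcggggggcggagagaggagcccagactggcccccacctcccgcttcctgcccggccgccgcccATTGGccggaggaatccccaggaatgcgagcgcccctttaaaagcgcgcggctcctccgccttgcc

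A TATAA was found 28 to 24 bases before the start of FN1 and 27 to 23 bases before that of TNC, while THBS1 had none in this window. It was present in 5 of the 9 members with an entry in the table (FN1, TNC, VCAN, THBS2 and POSTN), against 13.6% of 35116 upstream windows of the same length. The TGACGTCA of FN1, 183 to 176 bases before the start, was the only one among the members, and 1.65% of all windows held one. CCAAT stood in FN1 and, on the opposite strand, in THBS1, against 32.0% of windows, and GGGCGG on either strand stood in FN1, TNC, THBS1, VCAN and TGFBI, against 42.6%. CACGTG, the E-box bound by MYC, was in none of the 9 windows and in 6.34% of all. The FN1 window had 76.4% G and C and the TNC window 54.8%, beside a median of 58% over all windows. These matches describe letters in a window and were not related to binding here.

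The 10 genes ranged from the gene with the most counts in the cells to near silence. To compare genes, levels are given as CPM divided by the summed exon length in kilobases, written below as per-length levels. In shLuc the order from the highest was THBS1 (1441 ± 51.0, SD, n = 3), EFEMP1 (290.5 ± 6.54), SPARC (224.6 ± 6.08), FN1 (122.6 ± 6.61), TNC (54.1 ± 1.25), TGFBI (22.1 ± 1.79), VCAN (6.54 ± 0.12), FBN1 (0.45 ± 0.01), THBS2 (0.07 ± 0.02) and POSTN, which was close to 0. In shWDR5 FN1 moved from place 4 to place 2 and EFEMP1 from place 2 to place 4, and the other 8 genes kept their places. The ranges of neighbours in the order did not overlap in either group. The order was the same when levels were expressed as TPM.

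**Figure D1:**
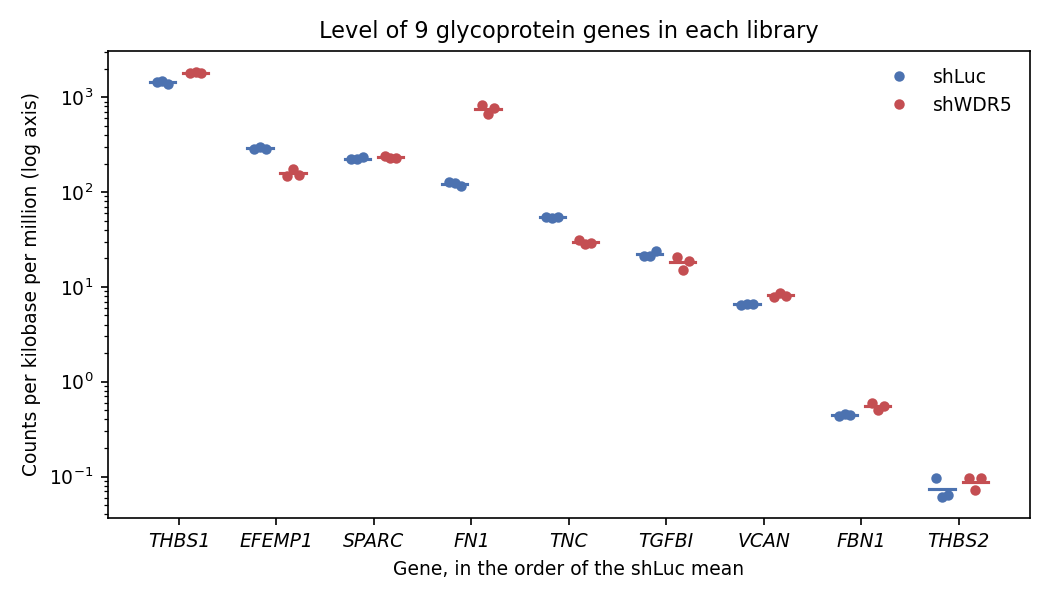
Per-length level (CPM per kilobase, log axis) of 9 genes in each of the 3 shLuc (blue) and 3 shWDR5 (red) libraries, with a line at the group mean; POSTN, with counts of 0 in 3 of 6 libraries, is left out. FN1 shows the widest gap between the groups, TNC and EFEMP1 lie lower in shWDR5, and SPARC and THBS2 overlap.

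The adhesive scaffold gene FN1 (chr2:216225163-216300793, minus strand, in the authors' hg19 annotation) had per-length levels of 128.1, 124.4 and 115.3 in the shLuc libraries and of 820.8, 669.0 and 765.8 in the shWDR5 libraries. The groups were far apart, and the lowest shWDR5 library was above every shLuc library. Overlap of the groups is given here and below as a description only. The share of all genes tested without overlap was not computed, and 56.5% of them were called. CD44 and HMCN1, named below, had no overlap either and were not called. FN1 was 6.13-fold higher in shWDR5 (log2 fold change 2.62, SE 0.08), the 75th highest log2 fold change of 16117 genes tested. Its share of all counts went from 0.106 to 0.117% in shLuc to 0.593 to 0.716% in shWDR5, and among all genes it moved from place 69 to place 6 by mean CPM. The table gives 1 count per gene, so splice forms of FN1, such as those with or without the extra domains, cannot be told apart. In bulk RNA a change in the share of cells expressing FN1 and a change of FN1 RNA per cell cannot be told apart, which holds for every gene below.

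Among the matricellular genes, TNC (chr9:117781854-117880536, minus strand) went the other way. Its per-length levels were 54.8, 52.7 and 54.9 in shLuc and 31.5, 28.3 and 29.2 in shWDR5. The groups did not overlap, and TNC was 1.82-fold lower in shWDR5 (log2 fold change -0.87, SE 0.06). 

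THBS1 (chr15:39873280-39891121, plus strand), which encodes an adhesive glycoprotein that can activate latent TGFB, held more counts than any other gene in both groups, and per length it was at place 22 of all genes in shLuc and 19 in shWDR5. It took 1.03 to 1.09% of all counts in shLuc and 1.27 to 1.32% in shWDR5. Its per-length levels were 1449, 1487 and 1386 in shLuc and 1809, 1847 and 1793 in shWDR5. The groups did not overlap, although the difference was small beside that of FN1 (1.26-fold higher, log2 fold change 0.33, SE 0.05). Its paralog THBS2 was almost silent, with 28, 14 and 15 counts in shLuc and 26, 24 and 26 in shWDR5. These counts overlapped between the groups, and the log2 fold change of THBS2, 0.22, was smaller than its SE of 0.26. The ratio of THBS1 to THBS2 per-length levels was between 15038 and 25722 in the 6 libraries, so 1 thrombospondin made up nearly all of the RNA of the pair in both groups.

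SPARC, a collagen-binding matricellular protein, had per-length levels of 221.3, 220.8 and 231.6 in shLuc and of 240.8, 230.8 and 227.7 in shWDR5. The groups overlapped, and the log2 fold change was 0.05 with an SE of 0.05. One antisense gene, CTB-113P19.1, shares exon positions with SPARC on the opposite strand and held 12 to 22 counts per library, beside 30743 to 47093 for SPARC. The strand setting of the counting was not given in the sources used here. Reads in the shared positions therefore cannot be told apart, and these counts do not show how many there were. POSTN, a periodontal and stromal protein of the fasciclin family, had 0, 1 and 0 counts in shLuc and 1, 2 and 0 in shWDR5, was below the filter on low counts and was not tested. TGFBI, which belongs to the same family, had per-length levels of 20.9, 21.2 and 24.1 in shLuc and of 20.9, 15.2 and 18.8 in shWDR5. Its groups almost touched, with the lowest shLuc library at 20.93 and the highest shWDR5 library at 20.87, and the log2 fold change was -0.27 with an SE of 0.11.

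The microfibril and proteoglycan genes differed less than FN1. VCAN had per-length levels of 6.42, 6.67 and 6.53 in shLuc and 7.91, 8.56 and 8.01 in shWDR5, without overlap (1.25-fold higher, log2 fold change 0.32, SE 0.05). FBN1 stood at 0.440, 0.456 and 0.449 in shLuc and 0.602, 0.509 and 0.553 in shWDR5, again without overlap (1.23-fold higher, log2 fold change 0.30, SE 0.09), but at a low level, with 207 to 338 counts per library. EFEMP1 (chr2:56093097-56151298, minus strand), a fibulin associated with elastic fibers and basement membranes, had per-length levels of 287.7, 298.0 and 285.9 in shLuc and 148.3, 174.3 and 151.7 in shWDR5. Its groups did not overlap, and at 1.84-fold lower (log2 fold change -0.88, SE 0.07) its difference was close in size to that of TNC.

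**Figure D2:**
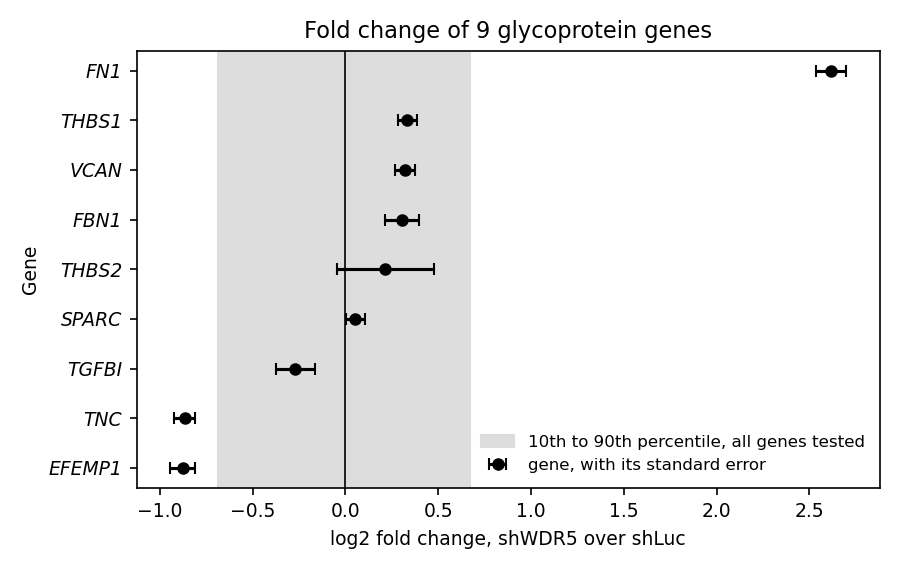
Log2 fold change of shWDR5 over shLuc (horizontal axis) for the 9 genes tested, with bars of 1 standard error; the grey band runs from the 10th to the 90th percentile of all 16117 genes tested (-0.69 to 0.67). FN1 at 2.62 lies to the right of the band, TNC and EFEMP1 at -0.87 and -0.88 to the left, and the other 6 genes inside it.

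Of the 10 members 9 were tested, and at an adjusted p below 0.05 edgeR's quasi-likelihood test called 4 higher (FN1, THBS1, VCAN and FBN1) and 2 lower (TNC and EFEMP1) in shWDR5. Over all genes tested 56.5% were called, 26.6% higher and 29.9% lower, and since the members were chosen on this comparison nothing is read from their count. The median log2 fold change was 0.22 over the 9 members and -0.01 over all genes tested, and the median absolute values were 0.32 and 0.31. The member median of 0.22 is the value of the almost silent THBS2 (SE 0.26), so no shift of the list is read from it. The call of TGFBI depended on the processing: its adjusted p passed the threshold under 6 of the 11 alternatives, among them DESeq2 (log2 fold change -0.26) and the fit without shWDR5 replicate 1 (-0.38), and not under the other 5. Without shWDR5 replicate 2 its log2 fold change was -0.15 and without shLuc replicate 3 it was -0.21, so the size rested on single libraries. FBN1 lost its call without shWDR5 replicate 1, at a log2 fold change of 0.24.

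Ratios of members within a library do not depend on how libraries are scaled. The list was chosen because FN1 was higher and TNC lower, so ratios with FN1 carry that choice. They are given as a description and are not a separate result. The ratio of FN1 to TNC per-length levels was 2.34, 2.36 and 2.1 in shLuc and 26.0, 23.6 and 26.2 in shWDR5. FN1 was below EFEMP1 in every shLuc library, with ratios of 0.445, 0.418 and 0.403, and above it in every shWDR5 library, with ratios of 5.53, 3.84 and 5.05. It likewise passed SPARC, from 0.579, 0.563 and 0.498 to 3.41, 2.90 and 3.36. Against THBS1 the ratio went from 0.088, 0.084 and 0.083 to 0.454, 0.362 and 0.427, so THBS1 stayed the more abundant of the pair. The second shWDR5 library had the lowest FN1 ratio of its group in all 4 cases. Together the 10 genes took 1.38 to 1.44% of all counts in shLuc and 2.09 to 2.16% in shWDR5. Of this, FN1, on which the list was chosen, took 0.106 to 0.117% in shLuc and 0.593 to 0.716% in shWDR5. THBS1 took 1.03 to 1.09% and 1.27 to 1.32%, and TNC and EFEMP1 were lower, so no rise of the whole list is read from it.

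**Figure D3:**
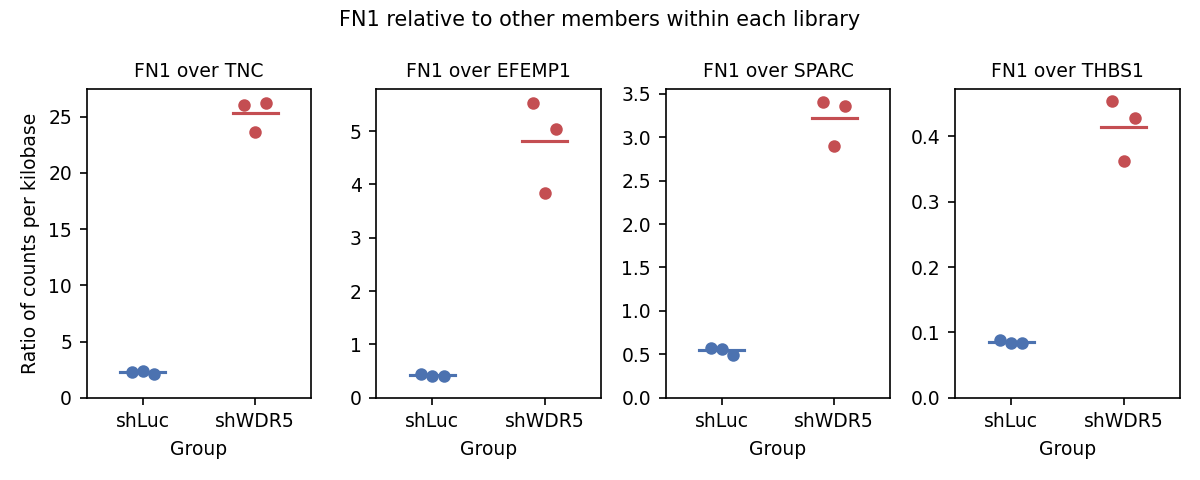
Ratio of the per-length level of FN1 to that of TNC, EFEMP1, SPARC and THBS1 (1 panel each, linear axes from 0) in the 3 shLuc (blue) and 3 shWDR5 (red) libraries, with a line at the group mean. In each panel the 3 shWDR5 libraries lie above the 3 shLuc libraries, and the FN1 to TNC ratio goes from at most 2.36 to at least 23.6. The list was chosen on FN1 and TNC, so a gap in their ratio follows from that choice.

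The genes with a pattern over the 6 libraries nearest to that of FN1, measured as the root mean square difference of centred log2 CPM, were IL32 (0.04), APCDD1L (0.10) and ZNF521 (0.13). They were at much lower levels than FN1, with shLuc and shWDR5 means of 6.16 and 38.2 CPM for IL32, 0.676 and 4.04 CPM for APCDD1L, and 0.162 and 1.12 CPM for ZNF521. Those nearest to TNC were TMEM79 (0.03), AGO1 (0.04) and XKR8 (0.04), with log2 fold changes of -0.91, -0.81 and -0.89. As the libraries form 2 groups, nearness mostly records a like difference between the groups.

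The families of the members showed changes in both directions. Of 26 paralogs listed, 15 were tested, of which 3 were called higher and 6 lower, beside the 26.6% and 29.9% of all genes, with a median log2 fold change of -0.16. SPOCK1, a testican proteoglycan with a SPARC-like domain, fell from 74.6 ± 7.01 to 29.5 ± 1.31 CPM (SD, n = 3 per group; log2 fold change -1.34, SE 0.08, edgeR adjusted p = 5.05e-07). SPOCK2 of the same family rose from 0.743 ± 0.332 to 4.21 ± 0.312 CPM (log2 fold change 2.46, SE 0.21, edgeR adjusted p = 6.04e-06), so the members of 1 family took opposite directions. Likewise EFEMP2 (fibulin 4), the nearest relative of EFEMP1, rose from 1.76 ± 0.187 to 5.23 ± 0.570 CPM (log2 fold change 1.57, SE 0.13, edgeR adjusted p = 3.61e-06) while EFEMP1 was lower. FBLN1 (fibulin 1), named after its values were seen because it was an abundant fibulin, fell from 272.2 ± 14.5 to 135.3 ± 5.66 CPM (log2 fold change -1.01, SE 0.06, edgeR adjusted p = 5.50e-07). BCAN, a hyaluronan-binding proteoglycan related to VCAN, rose from 13.8 ± 0.845 to 28.1 ± 1.66 CPM (log2 fold change 1.03, SE 0.08, edgeR adjusted p = 2.02e-06). THBS3, FBN2 and HMCN1, with log2 fold changes of -0.08, -0.08 and -0.16, did not pass the test.

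Of 26 other secreted matrix glycoproteins and proteoglycans, 19 were tested, with a median log2 fold change of 0.40. Of these 12 were called higher and 4 lower, beside the 26.6% and 29.9% of all genes. CTGF, a matricellular CCN protein that binds fibronectin and responds to TGFB, rose from 79.2 ± 4.68 to 217.7 ± 7.80 CPM (log2 fold change 1.46, SE 0.06, edgeR adjusted p = 1.06e-07). SPP1 (osteopontin), NOV (another CCN protein) and MATN3 (matrilin 3) had log2 fold changes of 2.89, 1.72 and 1.40, but all 3 stayed low, at 1.66, 2.64 and 1.35 CPM in shWDR5. Also low among those called higher were EMILIN1, MFAP2, NID2 and MFAP4, at 1.67, 0.793, 0.776 and 0.521 CPM in shWDR5. SRGN, called lower, was low too, at 2.25 CPM in shLuc. A gene can pass the filter on low counts through its higher group alone, so no shift of the list is read from its counts or median. CYR61, the third CCN gene of the list, was abundant (385.2 CPM in shLuc) and had a log2 fold change of -0.06 that did not pass the test.

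All 21 listed receptors for these proteins were tested, with a median log2 fold change of 0.16. Among them 10 were called higher and 5 lower, beside the 26.6% and 29.9% of all genes. Among the integrins, ITGB6, the partner of the alpha V chain in a fibronectin and latent TGFB receptor, rose from 260.7 ± 26.4 to 514.4 ± 36.7 CPM (log2 fold change 0.98, SE 0.08, edgeR adjusted p = 4.15e-06). ITGAV, that alpha V chain, rose from 320.7 ± 32.9 to 493.2 ± 53.6 CPM (log2 fold change 0.62, SE 0.09, edgeR adjusted p = 2.04e-04). The chains of the classical fibronectin receptor, ITGA5 and ITGB1, named after their values were seen, rose by 1.53-fold and 1.27-fold (edgeR adjusted p = 5.65e-05 and 2.44e-03). SDC2, a heparan sulfate proteoglycan that binds fibronectin, rose from 2.15 ± 0.238 to 5.69 ± 0.494 CPM (log2 fold change 1.40, SE 0.12, edgeR adjusted p = 4.40e-06), and LRP1, which takes up thrombospondin 1, had a log2 fold change of 0.67. ITGB3, EGFR, SDC1, ITGB5 and SDC3 were the 5 called lower, all with changes between -0.45 and -0.24 on the log2 scale. CD44, a receptor for hyaluronan, was at 2210 CPM in shLuc and had a log2 fold change of -0.12 that did not pass the test.

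Of 29 genes listed for the assembly, cross-linking and cleavage of these proteins, 25 were tested, with a median log2 fold change of -0.07. The test called 7 higher and 10 lower, beside the 26.6% and 29.9% of all genes. The most changed were proteases: MMP9 rose from 6.05 ± 0.680 to 77.7 ± 16.1 CPM (log2 fold change 3.68, SE 0.16, edgeR adjusted p = 1.19e-07) and MMP7 from 2.11 ± 0.259 to 17.0 ± 0.270 CPM (log2 fold change 3.01, SE 0.10, edgeR adjusted p = 2.86e-08). TGM2, a transglutaminase that cross-links fibronectin, fell from 931.1 ± 92.1 to 416.2 ± 18.5 CPM (log2 fold change -1.16, SE 0.07, edgeR adjusted p = 8.67e-07), the opposite direction to FN1. ADAMTS9, a protease that cleaves versican, fell by 0.92 on the log2 scale (edgeR adjusted p = 4.11e-05). The lysyl oxidase relatives LOXL1 to LOXL4 were all called lower, at log2 fold changes of -0.45, -0.59, -0.92 and -0.51, whereas LOX itself, at 0.02, did not pass the test.

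All 18 genes listed for TGFB signalling were tested, with a median log2 fold change of 0.04. Calls were higher for 6 and lower for 7, beside the 26.6% and 29.9% of all genes. TGFB1 fell from 23.3 ± 1.59 to 14.4 ± 1.05 CPM (log2 fold change -0.70, SE 0.08, edgeR adjusted p = 4.03e-05). The receptor gene TGFBR1 had a log2 fold change of 0.60 and SKIL, a feedback gene, of 0.69, and both passed the test. PMEPA1, a TGFB-induced feedback inhibitor, rose from 93.1 ± 2.81 to 413.9 ± 33.0 CPM (log2 fold change 2.15, SE 0.07, edgeR adjusted p = 2.86e-08). Of the genes named by rule from these lists, EFEMP2, LRP1, ADAMTS9 and PMEPA1 share exon positions with another annotated gene (MUS81, LRP1-AS, ADAMTS9-AS1 and NKILA). The strand setting of the counting was not given in the sources used here, so reads of the pairs cannot be told apart. Other genes named from the lists were not checked for such overlap.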

How the data were processed

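Poly-A RNA-seq libraries (Illumina TruSeq) were made from MCF10DCIS.com cells, 3 with shLuc and 3 with shWDR5. The authors deposited raw counts per gene, 1 column per library, with the summed exon length of each gene; per the labels, reads were aligned with TopHat2 (2.1.0) to hg19 (GRCh37) and counted with featureCounts. Counting options and strand setting were not given in the sources used here. A deposited table of the authors' own edgeR comparison (log2 fold changes, F statistics, p-values) was not used. Counts were fitted with edgeR 4.0.16 in R 4.3.3 (TMM scaling, filterByExpr with a minimum count of 10, quasi-likelihood test of group, Benjamini-Hochberg adjustment over all 16117 genes tested, threshold 0.05). SE is the log2 fold change over the square root of F. CPM were computed on TMM-scaled totals of the genes tested, and per-length levels are CPM per kilobase. The fit was also run on simulated counts with known changes in a small share of genes, balanced up and down, and with no replicate effect. That run therefore does not test the scaling or the error rate in these data.

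The members and gene lists were chosen with earlier results of these data known. Besides the members and WDR5, the genes named were, per list, the 4 past the threshold with the largest absolute log2 fold change and a mean of at least 1 CPM in a group, the 3 genes nearest to FN1 and to TNC. All other genes named from the lists (FBLN1, ITGA5, ITGB1, the LOX genes, the receptors called lower, the other matrix genes named as low and the examples that did not pass) were chosen after their values were seen. Alternatives were RLE scaling, DESeq2 1.42.0, no filter, a replicate block, the edgeR exact test, and each library left out. With 3 libraries a group, precision is set by their spread. Replicates differed beyond counting error (chi-square per degree of freedom of 7.11 to 18.2 between libraries of a group).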

Additional observations from a re-analysis of the deposited data

How the results depend on the processing

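The number of genes past the threshold, 9112 in the fit reported, was 9115 with RLE scaling, 8405 with DESeq2, 9330 with no filter on low counts, 9223 with the edgeR exact test and 8120 to 8847 with 1 library left out. The labels number the replicates alike in both groups, and correlations of same-numbered deviations were 0.37, 0.04 and 0.12. In both groups replicate 1 differed most from the others. Chi-square per degree of freedom was 16.8 and 15.1 for shLuc 1 against shLuc 2 and 3, and 7.59 between shLuc 2 and 3. For shWDR5 1 it was 14.2 and 18.2, and 7.11 between shWDR5 2 and 3. Whether same-numbered libraries shared a batch was not tested, and the fit reported did not pair them. With a replicate block 10412 genes passed. WDR5 stayed lower and past the threshold under all 11 alternatives, at -1.20 to -1.09 on the log2 scale. No fold change of a called member, list gene named by rule or gene nearest to FN1 or TNC turned direction. Of the members, TGFBI gained a call in 6 alternatives and FBN1 lost it in 1; no other member changed. Between 6 and 7 members were called. Every count per list and direction stayed within 1.5 times its reported value. With 1 library left out the log2 fold change of TGFBI ranged from -0.38 to -0.15. POSTN, with at most 2 counts per library, was below the filter on low counts and has no value in the fit reported.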
